A study of Mus musculus with 16 samples.

Results

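The late response of SFN-pretreated wild-type mIMCD3 cells to hyperosmotic stress was examined gene by gene. mIMCD3 is a cell line from the inner medullary collecting duct of the mouse kidney, and SFN is sulforaphane, a plant isothiocyanate that activates the transcription factor Nrf2. Wild-type (WT) cells received 10 µM SFN for 5 h. RNA was taken either at that point, under isosmotic conditions, or after the medium had been exchanged for hypertonic medium of 600 mOsm for 6 h. Each condition had 2 libraries, which are described as biological replicates. The members examined were the 18959 of 55367 genes in the count files that passed edgeR's expression filter. Also used were WT cells given SFN and 1 h of hyperosmotic stress, and WT cells given the solvent DMSO in place of SFN with no stress, 1 h or 6 h of stress, again with 2 libraries each. The remaining 4 of the 16 libraries, from Nrf2-/- cells, entered only 1 alternative fit.

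In the renal inner medulla the extracellular fluid is hypertonic, and cells there first lose water and accumulate ions. Over the following hours they replace part of those ions by compatible organic osmolytes, chiefly sorbitol, myo-inositol, betaine, taurine and glycerophosphocholine. The transcription factor NFAT5 (TonEBP) drives the genes for the transporters and enzymes that supply these osmolytes, together with some heat shock proteins. Nrf2 acts on another set of genes, for glutathione synthesis, NADPH supply, quinone reduction and haem breakdown. Its repressor KEAP1 carries reactive cysteines that SFN modifies.

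Total counts of the 12 WT libraries lay between 34941937 and 50774875. The biological coefficient of variation between the 2 libraries of a condition was 0.128 for isosmotic SFN cells and 0.0835 for 6 h SFN cells, and 0.0393 to 0.111 in the other WT conditions. Levels are given in CPM, the counts scaled to each library's TMM-adjusted size, in replicate order, and they compare libraries for 1 gene, not genes with each other. Of 9 renal epithelial markers, 8 rose at 6 h in SFN cells, where 31.8% of all tested genes did, and Krt8 did not pass the test. Under isosmotic conditions 7 of the 9 were lower and 1 higher with SFN than with DMSO, where 6.88% and 8.28% of all tested genes were. In DMSO cells 6 rose and 2 fell over 6 h. Summed levels were 2687 and 2436 CPM in isosmotic and 4330 and 4567 CPM in 6 h SFN cells. The defining marker of principal cells, the water channel gene Aqp2, was at 0 CPM in isosmotic and 0.325 and 0.315 CPM in 6 h SFN cells, and 8 of 11 principal cell markers were under 1 CPM in both conditions. The summed leukocyte markers lay between 2.06 and 2.90 CPM in isosmotic and between 7.71 and 8.35 CPM in 6 h SFN cells, and the endothelial ones between 0.0572 and 0.276 and between 4.64 and 5.25 CPM. Of 3 tested leukocyte markers Ptprc was at 0.0539 and 0.0185 CPM before and 5.32 and 4.59 CPM after 6 h, and Adgre1 rose from 0 CPM in both isosmotic libraries to 0.355 and 0.346 CPM, a call lost without the second isosmotic library. Whether other cells contributed to any result was not tested. All 13 protein genes of mitochondrial DNA were listed at 0 in every library.

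Most tested genes changed over 6 h of stress in SFN-pretreated cells. Against isosmotic SFN cells, 6035 genes (31.8% of those tested) were higher and 5287 (27.9%) lower (edgeR's quasi-likelihood test, Benjamini-Hochberg adjusted p under 0.05). At least 2-fold changes were called in 3767 genes upward (19.9%) and 1749 downward (9.23%), and at least 8-fold changes in 2001 and 98. Of the genes called higher, 1374 had at most 3 counts in each isosmotic SFN library. They belong to 1764 tested genes at this floor, which passed the filter only through other libraries, so rises were favoured among them. Of the genes called lower, 76 had at most 3 counts in each 6 h SFN library. How many of the 2001 genes were at the floor was not counted. Among genes with at least 10 counts in every library 4364 were higher and 4301 lower, so that 50.36% of the calls were rises, against 53.3% over all tested genes. The median log2 fold change over all tested genes was 0.10. This median and the shares of 31.8% higher and 27.9% lower are the background for the lists of genes below. No isosmotic library was harvested 6 h after the exchange of medium, so hyperosmotic stress, the exchange and the time since SFN was given cannot be told apart in this comparison. In bulk RNA, fewer cells of a kind and less RNA per cell cannot be told apart either.

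The list that holds the genes for organic osmolyte accumulation and other NFAT5 targets had the highest median change of the 17 gene lists examined. Lists and members were chosen with earlier results of these data known, so the choice may affect this rank. Of 15 genes on the list of NFAT5 targets and organic osmolyte genes, 14 were tested, 11 rose, Gdpd5 and Slc6a8 fell and Sord did not pass the test, with a median log2 fold change of 2.35. Slc6a12 (chr6:121343076-121365775, GRCm38, plus strand), which encodes the betaine transporter BGT1, had 0 counts in the isosmotic SFN libraries and 876 and 840 counts at 6 h. The 6 h level of 25.9 and 26.4 CPM was at least 384-fold above the level that 3 counts per library would give. Akr1b3, for aldose reductase, which makes sorbitol from glucose, went from 299 and 305 to 5071 and 5438 CPM (log2 fold change 4.12 ± 0.067 (SE), adjusted p = 3.2e-20). Both 6 h libraries were far above both isosmotic ones. With 2 libraries against 2, such a separation alone has p = 0.333 in an exact permutation test. Its share over all tested genes was not counted.

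Slc5a3, for the myo-inositol transporter SMIT1, was at 62.1 and 81.9 CPM before stress and at 1104 and 928 CPM after 6 h (log2 fold change 3.82 ± 0.13 (SE), adjusted p = 9.1e-11). The gene lies within Mrps6, so reads of the overlap may be split between them. Slc38a2, whose product SNAT2 takes up small neutral amino acids, rose from 375 and 466 to 2487 and 2372 CPM (log2 fold change 2.53 ± 0.090 (SE), adjusted p = 1.8e-13). Slc6a6, for the taurine transporter, rose from 274 and 271 to 1089 and 1035 CPM (log2 fold change 1.96 ± 0.079 (SE), adjusted p = 4.0e-14). The 1 h SFN libraries of Slc5a3 and Slc6a6, at 79.7 and 76.1 CPM for the one and 273 and 271 CPM for the other, lay at the isosmotic level. Slc38a2 was already at 703 and 709 CPM at 1 h. NFAT5's own transcript rose from 292 and 369.5 to 1205 and 1018 CPM (log2 fold change 1.75 ± 0.17 (SE), adjusted p = 4.7e-05), with 348 and 333 CPM at 1 h.

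**Figure D1:**
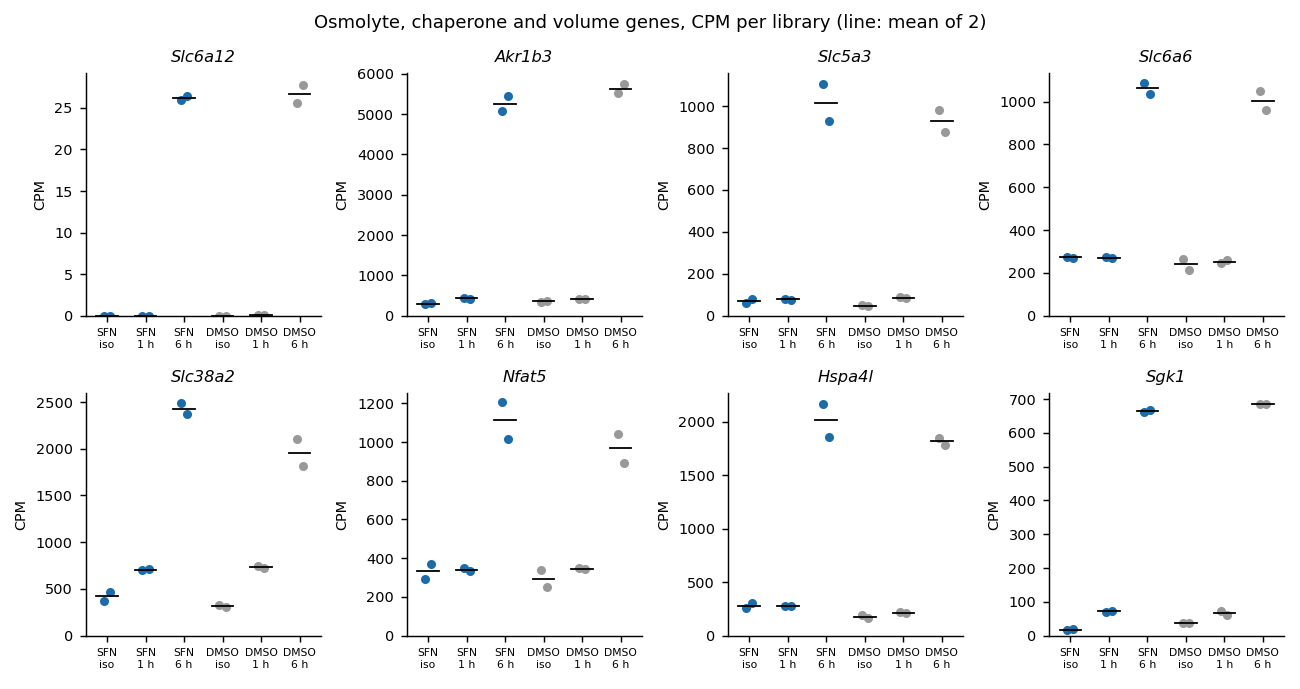
CPM of 8 osmolyte, chaperone and volume genes (vertical axes, linear, from 0) in each WT library, by pretreatment and by time in hyperosmotic medium (horizontal axis); points are libraries and lines the mean of 2. SFN libraries are blue and DMSO libraries grey; in each panel the 6 h libraries of both pretreatments lie above all isosmotic and 1 h libraries, as for Akr1b3, at 5071 and 5438 CPM with SFN and 5522 and 5739 CPM with DMSO at 6 h.

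Genes that handle glycerophosphocholine moved in opposite directions. Pnpla6, for a lysophospholipase that releases glycerophosphocholine, rose by 0.70 ± 0.074 on the log2 scale (adjusted p = 8.7e-08). Gdpd5, for a phosphodiesterase that degrades it, was at 10.7 and 11.9 CPM in isosmotic and at 4.46 and 3.05 CPM in 6 h SFN cells (log2 fold change -1.59 ± 0.16 (SE), adjusted p = 2.9e-08). Slc6a8, the creatine transporter gene, was at 51.8 and 46.9 CPM before and at 33.4 and 35.9 CPM after 6 h (log2 fold change -0.51 ± 0.083 (SE), adjusted p = 2.3e-05). Sord, for the enzyme that oxidises sorbitol to fructose, had a log2 fold change of -0.24 ± 0.14, adjusted p = 0.157. S100a4, a small calcium-binding protein gene, rose at a low level, from 0.216 and 0.277 to 1.21 and 1.04 CPM (log2 fold change 2.16 ± 0.65, adjusted p = 0.00731).

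Ion transport genes changed in both directions. Of 24 tested genes for ion transport and cell volume, 12 rose and 7 fell, with a median of 0.24 against 0.10 for all genes. Of all tested genes 31.8% rose and 27.9% fell. Sgk1, for a kinase that stimulates epithelial sodium transport, rose from 15.3 and 18.7 to 662 and 668 CPM (log2 fold change 5.28 ± 0.097 (SE), adjusted p = 1.5e-19), by way of 71.0 and 71.9 CPM at 1 h. Atp1b1, for the beta subunit of the Na+/K+-ATPase, which restores the sodium and potassium gradients, overlaps Nme7 on the other strand and rose from 138 and 140.3 to 773 and 778 CPM (log2 fold change 2.48 ± 0.061 (SE), adjusted p = 1.2e-17). Both 6 h libraries lay above both isosmotic ones, with the limit stated for Akr1b3. Aqp1, a water channel gene, went from 1.27 and 1.44 to 12.7 and 15.7 CPM (log2 fold change 3.38 ± 0.25 (SE), adjusted p = 5.3e-10). Fxyd2, for a regulatory subunit of the Na+/K+-ATPase, had 0 counts before and 48 and 22 counts after 6 h, at least 15.5-fold above the 3-count level. Trpv4, for a cation channel gated by swelling, fell from 36.6 and 34.4 to 25.4 and 23.7 CPM (log2 fold change -0.53 ± 0.086 (SE), adjusted p = 2.2e-05).

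The largest rises among chaperones were in genes of the HSP70 and HSP110 families. Of 24 heat shock chaperone genes 13 rose, 5 fell and 6 did not pass the test, with a median log2 fold change of 0.18. Hspa1b, for the stress-inducible HSP70, was at 239.8 and 242 CPM in isosmotic and 2608 and 2916 CPM in 6 h SFN cells (log2 fold change 3.52 ± 0.064 (SE), adjusted p = 1.3e-19). Its neighbour Hspa1a encodes a near-identical protein, so the split of reads between the pair is uncertain, and it rose from 10.9 and 12.3 to 67.1 and 67.9 CPM (log2 fold change 2.54 ± 0.12 (SE), adjusted p = 6.1e-13). Hspa4l, for the osmotic stress protein APG-1 of the HSP110 family, rose from 258 and 300.4 to 2167 and 1857 CPM (log2 fold change 2.85 ± 0.088 (SE), adjusted p = 5.5e-15), with 281 and 278 CPM at 1 h. The 6 h and isosmotic libraries did not overlap in these genes, a separation with the limit stated for Akr1b3. Hsf2, a heat shock factor gene, rose by 1.504 ± 0.089 on the log2 scale (adjusted p = 1.8e-11). The constitutive HSP70 gene Hspa8 went the other way, from 3663 and 4158 to 2346 and 2277 CPM (log2 fold change -0.76 ± 0.061 (SE), adjusted p = 1.8e-09). Chordc1, Hspb8, Serpinh1 and Dnajb1 also fell, by log2 fold changes of -0.97, -0.85, -0.74 and -0.43.

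**Figure D2:**
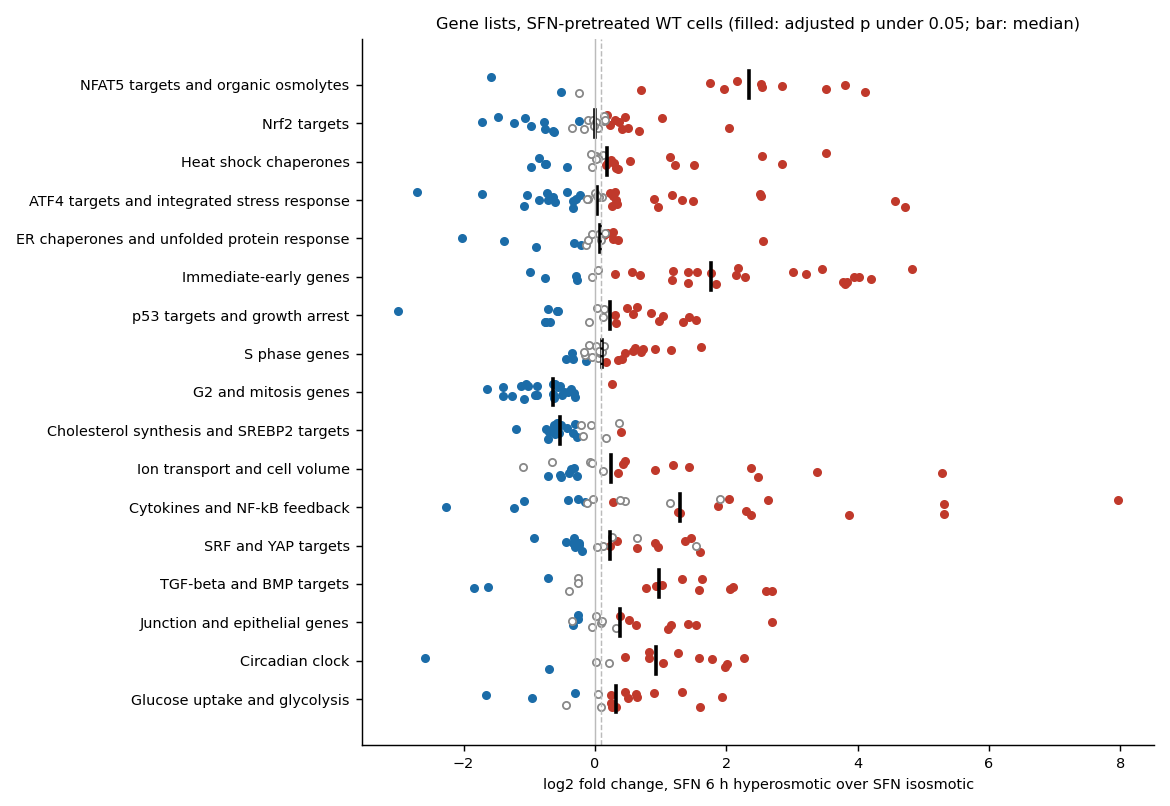
Log2 fold change of each tested member (horizontal axis) in 17 gene lists (rows) between 6 h hyperosmotic and isosmotic SFN-pretreated WT cells; filled points passed an adjusted p of 0.05 (red higher, blue lower), open ones did not, black bars are list medians over all tested members, and members with at most 3 counts in each isosmotic library are not drawn. The dashed line marks the median of all tested genes, 0.10; the osmolyte and immediate-early lists lie mostly to its right, with medians of 2.35 and 1.77, and the G2 and mitosis list mostly to its left, with a median of -0.64.

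Immediate-early genes, which encode transcription factors and phosphatases induced within minutes of many stimuli, were mostly higher after 6 h. Of 29 tested members 23 rose, 20 of them at least 2-fold, and 4 fell, with a median of 1.77. Over 6 h in DMSO cells 15 rose and 11 fell, with a median of 0.43. Under isosmotic conditions 25 of the 29 were already lower with SFN than with DMSO. In SFN cells Arc rose from 15.1 and 12.8 to 398 and 395 CPM (log2 fold change 4.84 ± 0.093 (SE), adjusted p = 2.9e-19). Dusp6, for a phosphatase that inactivates ERK, rose from 58.5 and 58.3 to 1039 and 1118 CPM (log2 fold change 4.21 ± 0.069 (SE), adjusted p = 3.2e-20), and 1 h SFN cells were still at 56.8 and 56.4 CPM. Klf4 and Fosb, for DNA-binding factors, rose by 4.02 ± 0.097 and by 3.95 ± 0.16 on the log2 scale. Klf2 and Jund were among the members that fell, by log2 fold changes of -0.98 and -0.75.

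Cxcl1, Cxcl2 and Cxcl5, for CXC chemokines that attract neutrophils, were higher after 6 h. Of 27 tested genes for cytokines and NF-kB feedback 14 rose and 6 fell, with a median of 1.30. Over 6 h in DMSO cells 10 rose and 10 fell, with a median of 0.73. Under isosmotic conditions 15 of the 27 were lower and 1 higher with SFN than with DMSO. Of all tested genes 6.88% were lower and 8.28% higher there. In SFN cells Cxcl2 rose from 0.809 and 0.573 to 169.8 and 169 CPM (log2 fold change 7.97 ± 0.15 (SE), adjusted p = 1.6e-19), passing 10.0 and 7.98 CPM at 1 h. Cxcl1 rose from 16.1 and 13.1 to 574 and 591 CPM (log2 fold change 5.32 ± 0.093 (SE), adjusted p = 1.0e-19). Cxcl5, from the same gene cluster, rose from 2.56 and 2.62 to 106 and 101 CPM (log2 fold change 5.32 ± 0.13 (SE), adjusted p = 2.2e-17). By contrast, Cxcl10, another CXC chemokine gene, which overlaps Art3 on the other strand, did not pass the test (log2 fold change -0.12 ± 0.13 (SE), adjusted p = 0.437). Ptgs2, for the prostaglandin-forming enzyme cyclooxygenase-2, which renal medullary cells induce in hypertonic medium, rose from 147 and 173 to 2437 and 2244 CPM (log2 fold change 3.87 ± 0.083 (SE), adjusted p = 1.7e-18). Tnf was called higher on only 6 and 13 counts at 6 h against 0, and Il6 on 10 and 0 against 0, so both rest on few reads. The call for Il6 was lost without the first 6 h SFN library, where it had its counts, and without the second isosmotic one. Il6 was at 1.59 and 1.25 CPM at 1 h and was lower at 6 h than at 1 h (log2 fold change -3.21 ± 0.80 (SE), adjusted p = 0.00243). Nfkbie, for an inhibitor of NF-kB, fell from 14.9 and 16.4 to 3.13 and 3.37 CPM (log2 fold change -2.27 ± 0.14 (SE), adjusted p = 2.4e-11), and Birc3 by a log2 fold change of -1.23.

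Genes for the later cell cycle were mostly lower. Of 24 genes for G2 and mitosis, 23 fell and the list's median was -0.64. Cks2 rose by 0.26 ± 0.081 on the log2 scale, a call that was lost without the second isosmotic SFN library and with all 16 libraries in the fit. The cyclin gene Ccnb1, needed to enter mitosis, went from 254 and 276 to 105 and 96.5 CPM (log2 fold change -1.40 ± 0.066 (SE), adjusted p = 4.4e-13). Cdc25c, for the phosphatase that activates CDK1, went from 37.6 and 39.7 to 12.8 and 11.98 CPM (log2 fold change -1.64 ± 0.095 (SE), adjusted p = 1.2e-11). Ttk and Cenpe, both acting at kinetochores, fell by log2 fold changes of -1.39 and -1.27. Among 25 S phase genes, 11 rose, 4 fell and 10 did not pass the test, with a median of 0.12 near that of all genes. Of all tested genes 31.8% rose and 27.9% fell. Cdc6, which loads the replicative helicase, rose from 105 and 107 to 322 and 327 CPM (log2 fold change 1.61 ± 0.061 (SE), adjusted p = 1.4e-14). Pcna, for the sliding clamp of DNA polymerase, rose from 249 and 241 to 544 and 550.4 CPM (log2 fold change 1.16 ± 0.058 (SE), adjusted p = 1.3e-12), whereas Prim1 and Rrm1 fell, by log2 fold changes of -0.44 and -0.35.

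Among 22 tested p53 targets and growth arrest genes 11 rose and 7 fell, with a median of 0.22, where 31.8% of all tested genes rose and 27.9% fell. Cdkn1a, for the CDK inhibitor p21, rose from 51.1 and 45.5 to 138 and 142 CPM (log2 fold change 1.54 ± 0.086 (SE), adjusted p = 6.6e-12). The pro-apoptotic gene Pmaip1 rose from 68.8 and 69.9 to 196 and 180.4 CPM (log2 fold change 1.44 ± 0.066 (SE), adjusted p = 3.1e-13). Fas, for a death receptor, fell at a low level, from 1.32 and 1.15 to 0.207 and 0.0944 CPM (log2 fold change -2.99 ± 0.58 (SE), adjusted p = 1.6e-04).

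Cholesterol synthesis genes were lower almost throughout. Of 22 genes for cholesterol synthesis and other SREBP2 targets 16 fell, 1 rose and 5 did not pass the test, with a median of -0.54. Dhcr7, for the last step of the Kandutsch-Russell branch, went from 33.3 and 33.7 to 14.2 and 15.1 CPM (log2 fold change -1.19 ± 0.095 (SE), adjusted p = 1.6e-09), and Mvd and Sqle fell by log2 fold changes of -0.72 and -0.69.

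The kidney transcription factor genes Pax8 and Pax2 rose. Both factors specify renal epithelium in development, and their transcripts went from 91.7 and 101 to 673 and 687 CPM and from 139.7 and 145 to 955 and 1051 CPM. The log2 fold changes were 2.82 ± 0.066, adjusted p = 6.3e-18 for Pax8, and 2.81 ± 0.065, adjusted p = 5.7e-18 for Pax2. Of 19 tested junction and epithelial genes 9 rose and 3 fell, with a median of 0.38. Under isosmotic conditions 13 of the 19 were lower with SFN than with DMSO, where 6.88% of all tested genes were, and in DMSO cells 6 rose and 6 fell over 6 h. Cldn4, for a claudin of tight junctions in the collecting duct, rose from 84.9 and 81.5 to 514 and 567 CPM (log2 fold change 2.70 ± 0.072 (SE), adjusted p = 4.9e-17), and the E-cadherin gene Cdh1 from 139 and 147 to 428 and 399 CPM (log2 fold change 1.53 ± 0.063 (SE), adjusted p = 4.8e-14). Cldn6 had 0 counts before and 77 and 69 counts after 6 h, and lies 1781 bases before the 5′ end of Tnfrsf12a.

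Among 16 tested TGF-beta and BMP genes 10 rose and 3 fell, with a median of 0.98. Ligand genes and genes for inhibitors, Id2, Smad7, Bambi and Nog, were both among those that rose. Tgfb2 rose from 2.88 and 4.19 to 14.7 and 15.2 CPM (log2 fold change 2.06 ± 0.16 (SE), adjusted p = 1.6e-09), and Bmp4 from 0.997 and 1.18 to 4.67 and 4.78 CPM (log2 fold change 2.10 ± 0.33 (SE), adjusted p = 1.4e-05). Id3, for an inhibitor of helix-loop-helix factors, fell from 146 and 139 to 40.5 and 39.5 CPM (log2 fold change -1.84 ± 0.077 (SE), adjusted p = 7.6e-14), and the log2 fold changes of Smad6 and Id1 were -1.62 and -0.72. Of 21 SRF and YAP targets 8 were higher and 8 lower, with a median of 0.24. Of all tested genes 31.8% were higher and 27.9% lower. Lats2, for a kinase that restrains YAP, rose by 1.60 ± 0.078 on the log2 scale, and Ankrd1 went from 866 and 895 to 456 and 472 CPM (log2 fold change -0.93 ± 0.058 (SE), adjusted p = 4.6e-11).

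Clock and glucose genes were higher in the main. Of 14 tested circadian clock genes 10 rose, among them Per1 from 46.5 and 46.2 to 187 and 186 CPM (log2 fold change 2.01 ± 0.075 (SE), adjusted p = 1.3e-14), Cry1 by 1.97 ± 0.089 and Nr1d1 by 2.28 ± 0.14 on the log2 scale. Bhlhe41, another repressor of the loop, fell from 4.80 and 3.71 to 0.562 and 0.849 CPM (log2 fold change -2.59 ± 0.29 (SE), adjusted p = 1.9e-07). Of 19 genes for glucose uptake and glycolysis 13 rose and 3 fell, with a median of 0.32. Pfkfb3, whose product makes the allosteric activator of phosphofructokinase, rose from 24.3 and 26.0 to 95.2 and 98.6 CPM (log2 fold change 1.94 ± 0.082 (SE), adjusted p = 8.5e-14), and Hk2, for hexokinase 2, from 127 and 124 to 386 and 371 CPM (log2 fold change 1.59 ± 0.067 (SE), adjusted p = 8.2e-14). Txnip, for an inhibitor of glucose uptake, fell from 18.4 and 17.7 to 6.65 and 4.75 CPM (log2 fold change -1.66 ± 0.13 (SE), adjusted p = 1.9e-09).

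Targets of ATF4, the transcription factor of the integrated stress response, changed in both directions. Of 35 members 15 rose, 14 fell and 6 did not pass the test, with a median of 0.03 against 0.10 for all genes. Of all tested genes 31.8% rose and 27.9% fell. Promoters of 3 ATF4 targets, and of Slc7a11 from the list of Nrf2 targets, are shown because they share a motif while their genes moved in different directions. The motif is the C/EBP-ATF response element core TGATGNAA, searched on both strands in the 250 bases before the start that RefSeq gives. It was present in the promoters of 8 of 28 listed genes with a promoter in the table (28.6%), 3.53% of all 27025 promoters and 2.05% of those of tested genes, and a match describes letters, not a site in use. The 4 promoters follow, 5′ to 3′ on the gene's strand, build GRCm38.p6, with the motif in capitals as it reads on that strand.
Nupr1 (chr7:126625471-126625720, minus strand): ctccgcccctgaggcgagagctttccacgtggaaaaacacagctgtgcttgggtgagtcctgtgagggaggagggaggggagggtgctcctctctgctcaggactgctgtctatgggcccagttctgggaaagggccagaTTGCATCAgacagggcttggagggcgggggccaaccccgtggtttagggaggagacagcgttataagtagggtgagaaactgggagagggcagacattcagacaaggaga
Chac1 (chr2:119350992-119351241, plus strand): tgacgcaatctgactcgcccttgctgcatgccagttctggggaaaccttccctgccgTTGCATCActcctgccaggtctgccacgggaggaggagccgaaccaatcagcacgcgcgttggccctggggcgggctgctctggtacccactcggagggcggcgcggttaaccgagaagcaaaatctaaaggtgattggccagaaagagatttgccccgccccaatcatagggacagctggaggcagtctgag
Pck2 (chr14:55540016-55540265, plus strand): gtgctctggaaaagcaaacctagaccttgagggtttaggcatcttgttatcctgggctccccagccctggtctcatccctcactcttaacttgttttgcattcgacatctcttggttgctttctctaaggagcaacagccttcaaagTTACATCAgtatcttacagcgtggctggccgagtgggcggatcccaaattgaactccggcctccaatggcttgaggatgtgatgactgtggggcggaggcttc
Slc7a11 (chr3:50443614-50443863, minus strand): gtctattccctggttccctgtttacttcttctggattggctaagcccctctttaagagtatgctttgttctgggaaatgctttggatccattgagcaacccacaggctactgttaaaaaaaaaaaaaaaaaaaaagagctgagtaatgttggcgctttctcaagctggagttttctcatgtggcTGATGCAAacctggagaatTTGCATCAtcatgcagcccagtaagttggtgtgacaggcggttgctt

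Nupr1, for a small stress-induced chromatin protein, had the largest rise of the list, from 16.5 and 14.2 to 390.3 and 414 CPM (log2 fold change 4.72 ± 0.11 (SE), adjusted p = 1.2e-17), and 1 h SFN cells were at 24.4 and 21.3 CPM. Chac1, for a glutathione-degrading enzyme, went the other way, from 28.4 and 24.2 to 6.98 and 9.03 CPM (log2 fold change -1.72 ± 0.14 (SE), adjusted p = 2.7e-09). Pck2, for mitochondrial phosphoenolpyruvate carboxykinase, fell from 69.3 and 61.8 to 33.1 and 28.7 CPM (log2 fold change -1.08 ± 0.093 (SE), adjusted p = 4.5e-09). So the motif stood before genes that rose and before genes that fell. Trib3, for a pseudokinase that curbs ATF4 itself, fell from 29.1 and 28.4 to 4.52 and 4.28 CPM (log2 fold change -2.70 ± 0.14 (SE), adjusted p = 3.5e-12), and 1 h SFN cells had been at 29.3 and 31.8 CPM. Aldh1l2, of mitochondrial folate metabolism, rose at a low level, from 0.0809 and 0.314 to 5.47 and 4.81 CPM (log2 fold change 4.57 ± 0.44 (SE), adjusted p = 2.3e-08). Atf4 itself rose by 0.26 ± 0.067 on the log2 scale (adjusted p = 0.00204), a call lost with all 16 libraries in the fit. Gpt2 and Aars, for an aminotransferase and the alanyl-tRNA synthetase, fell by log2 fold changes of -1.03 and -0.85.

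Of 18 genes of the unfolded protein response 7 rose and 5 fell, where 31.8% of all tested genes rose and 27.9% fell, with a median of 0.08. Dnajb9, for an ER co-chaperone, rose from 11.5 and 12.6 to 74.2 and 68.1 CPM (log2 fold change 2.56 ± 0.12 (SE), adjusted p = 2.9e-13). Xbp1, for the factor that IRE1 activates by splicing, fell from 70.8 and 68.0 to 17.9 and 16.4 CPM (log2 fold change -2.02 ± 0.092 (SE), adjusted p = 2.9e-13), and Herpud1, of ER-associated degradation, from 41.5 and 42.5 to 15.6 and 16.6 CPM (log2 fold change -1.38 ± 0.12 (SE), adjusted p = 8.2e-09). Hspa5, for the ER chaperone BiP, changed by 0.27 ± 0.055, adjusted p = 2.8e-04.

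Turning to the SFN response, of 30 Nrf2 targets 10 rose, 10 fell and 10 did not pass the test over the 6 h, shares near the 31.8% higher and 27.9% lower of all tested genes. The median log2 fold change was -0.0029. Nfe2l2, which encodes Nrf2, rose from 67.3 and 77.8 to 145 and 151 CPM (log2 fold change 1.03 ± 0.077 (SE), adjusted p = 5.5e-10), and Keap1 fell from 64.7 and 60.3 to 25.1 and 26.1 CPM (log2 fold change -1.28 ± 0.085 (SE), adjusted p = 9.9e-11). The falls included the 3 genes with the largest difference between SFN and DMSO at 1 h, Slc7a11, Hmox1 and Srxn1. Slc7a11, for the cystine-glutamate exchanger that feeds glutathione synthesis, went from 37.5 and 41.4 CPM in isosmotic through 29.9 and 31.0 CPM at 1 h to 15.0 and 13.5 CPM in 6 h SFN cells (log2 fold change -1.47 ± 0.13 (SE), adjusted p = 1.1e-08). Hmox1, for haem oxygenase-1, went from 329 and 307 through 254 and 252 to 134 and 138 CPM (log2 fold change -1.23 ± 0.072 (SE), adjusted p = 1.5e-11). Srxn1, for sulfiredoxin, went from 213 and 199 to 101 and 95.7 CPM (log2 fold change -1.07 ± 0.067 (SE), adjusted p = 4.5e-11). In these genes the isosmotic, 1 h and 6 h SFN libraries gave a descending order of means, with DMSO-treated cells at 6 h lower still: 8.09 and 7.04 CPM for Slc7a11, 102 and 107 CPM for Hmox1 and 69.8 and 64.2 CPM for Srxn1.

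Several glutathione and thioredoxin genes fell as well. Gclm, for the modifier subunit of glutamate-cysteine ligase, went from 389 and 434 to 268 and 261 CPM (log2 fold change -0.64 ± 0.063 (SE), adjusted p = 3.7e-08). The catalytic subunit gene Gclc was at 170.1 and 191 CPM in isosmotic and 166 and 156 CPM in 6 h cells, a log2 fold change of -0.16 ± 0.070, adjusted p = 0.0512. Txnrd1, for thioredoxin reductase, went from 1224 and 1229 to 723 and 705 CPM (log2 fold change -0.78 ± 0.054 (SE), adjusted p = 1.8e-10), and Gsr, for glutathione reductase, by a log2 fold change of -0.62. The log2 fold changes of the other falling genes were -1.72 for Osgin1, -0.98 for Cbr3, a carbonyl reductase gene, -0.76 for Slc48a1, a haem transporter gene, and -0.25 for Tkt, for transketolase, the call for Tkt being lost under a filter of at least 10 counts in every library. Rises were found in Akr1b8, an aldo-keto reductase gene (38.2 and 40.6 to 160.1 and 165 CPM, log2 fold change 2.04 ± 0.076 (SE), adjusted p = 1.1e-14), in Txn1, for thioredoxin (0.51), in Me1, for malic enzyme (0.67), in Sqstm1, for the autophagy receptor p62 (0.46), and in Abcc1 (0.42) and Abcc4 (0.37), for export pumps. Prdx1, for a peroxiredoxin, and the glutathione transferase genes Gsta4 and Gstm1 rose by 0.30, 0.24 and 0.18. With all 16 libraries in the fit these 3 calls and that of Txn1 were lost, and the call for Gsta4 was also lost without either 6 h or the second isosmotic SFN library, and that for Gstm1 without the second 6 h or the first isosmotic one.

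**Figure D3:**
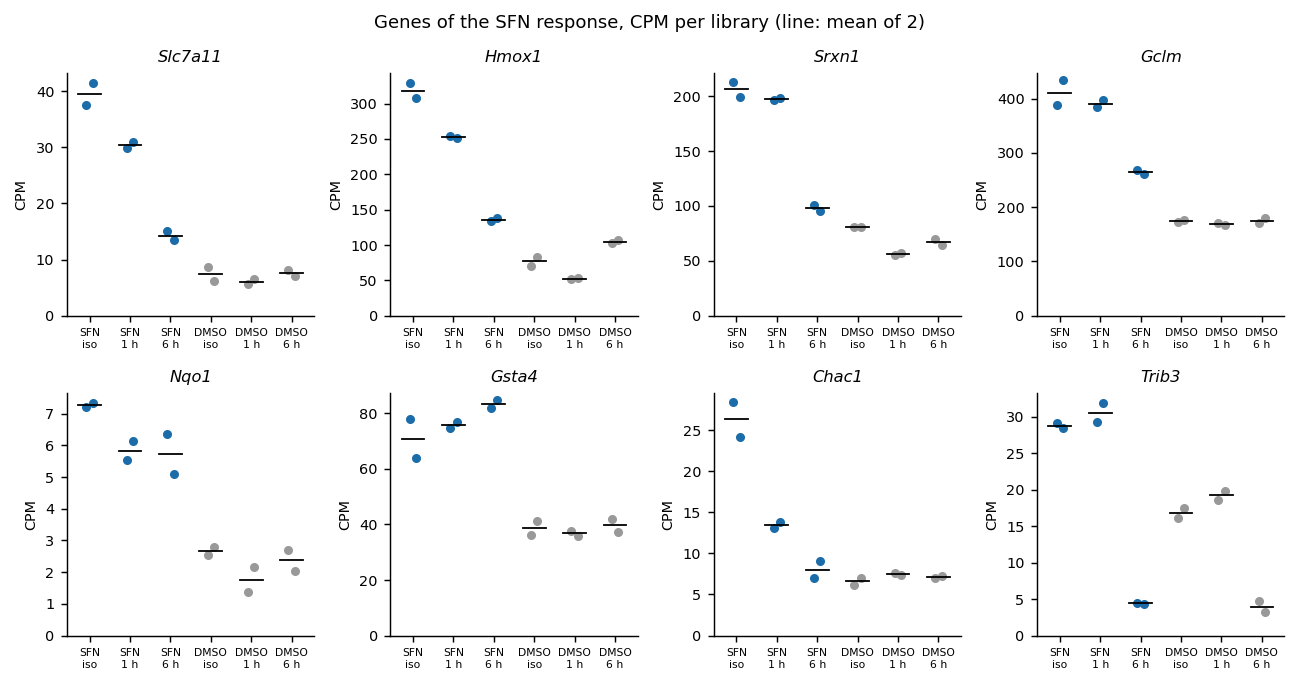
CPM of 8 genes of the SFN response (vertical axes, linear, from 0) in each WT library, by pretreatment and by time in hyperosmotic medium (horizontal axis); points are libraries, SFN blue and DMSO grey, and lines the mean of 2. Hmox1 declines from 329 and 307 CPM in isosmotic to 134 and 138 CPM in 6 h SFN cells, whereas Gsta4, at 82.1 and 84.9 CPM at 6 h, stays apart from the DMSO libraries.

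What was left of the SFN difference was read by setting 6 h SFN against 6 h DMSO cells, a comparison without isosmotic libraries. In it 36 genes (0.19%) were higher with SFN and 10 (0.0527%) lower, while 78 (0.411%) and 23 (0.121%) had differed at 1 h, and 1570 (8.28%) and 1305 (6.88%) under isosmotic conditions. With only the compared libraries in each fit the counts were 79 and 27 at 6 h, 497 and 312 at 1 h and 507 and 590 isosmotic, so the ratios between the times depend on which libraries enter the fit. Of the 30 Nrf2 targets, 13 were higher with SFN at 6 h, 20 had been under isosmotic conditions, and 28 of the 30 had a positive difference at 6 h. The count of 36 depended on each library, and was 16 and 18 without the first or second 6 h SFN library and 19 and 12 without the first or second 6 h DMSO library. The 10 lower genes became 1, 2, 5 and 0 in the same order. At 1 h the counts were 31 and 4 or 35 and 1 without the first or second DMSO library, and 39 and 4 or 39 and 6 without the first or second SFN library. Under isosmotic conditions they were 2000 and 1474 or 614 and 722 without the first or second DMSO library, and 1891 and 1789 or 748 and 776 without the first or second SFN library. With all 16 libraries in the fit, 8 higher and 0 lower genes were called, and 38 of the 46 calls were lost. The 8 that remained, also without any single library, were Gsta4, Adh7, Gsta1, Slc48a1, Esd, Gclm, G6pdx and Srxn1. Of the tested genes, 1657 had an unadjusted p under 0.05 in the 12-library fit.

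Of the genes called at 6 h, Nqo1, for the NADPH quinone oxidoreductase, was at 6.35 and 5.09 CPM with SFN and 2.71 and 2.05 CPM with DMSO at 6 h (log2 fold change 1.27 ± 0.24 (SE), adjusted p = 0.0237), and the isosmotic and 1 h differences were 1.45 and 1.74 on the log2 scale. Gsta4 was at 82.1 and 84.9 CPM with SFN against 42.0 and 37.3 CPM with DMSO (log2 fold change 1.07 ± 0.096 (SE), adjusted p = 2.5e-06), with 0.87 and 1.04 before. Gsta2, from the same family of glutathione transferases, had the largest difference at 6 h, 3.78 and 3.68 against 1.37 and 1.21 CPM (log2 fold change 1.53 ± 0.27 (SE), adjusted p = 0.017), with 1.38 at 1 h and an isosmotic 0.50 that did not pass the test, and members of this family share sequence, so reads may be split among them. Gstm1 and Gstp1, for other glutathione transferases, did not pass the test at 6 h, with differences of 0.27 and 0.21. Blvrb, for biliverdin reductase B, and the pentose phosphate genes Pgd and G6pdx differed by 0.91, 0.69 and 0.57 at 6 h, next to 0.58, 0.66 and 0.51 under isosmotic conditions.

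Other differences had shrunk. The log2 difference of Slc7a11 between SFN and DMSO was 2.41 ± 0.14 isosmotic, 2.33 ± 0.14 at 1 h and 0.91 ± 0.15 at 6 h (adjusted p at 6 h = 0.00545). For Hmox1 it was 2.05 ± 0.074, 2.28 ± 0.075 and 0.38 ± 0.072 (adjusted p at 6 h = 0.0259). Gclc went from 1.26 ± 0.072 and 1.21 ± 0.072 to 0.12 ± 0.071, which did not pass the test (adjusted p = 0.661). The export pump gene Abcc4 went from 0.53 ± 0.078 and 0.35 ± 0.078 to -0.02 ± 0.078 (adjusted p = 0.976). The genes lower with SFN at 6 h included Cldn1, a claudin gene, at 13.1 and 9.69 against 18.1 and 21.1 CPM (log2 fold change -0.78 ± 0.14 (SE), adjusted p = 0.0208), the potassium channel gene Kcnj16 (-0.64) and Trpv4 (-0.48). The 6 h calls for Hmox1, Gsta2, Kcnj16 and Trpv4 were lost whichever library of the comparison was left out, those for Nqo1 without 3 of them, and those for Slc7a11, Blvrb and Cldn1 without at least 1.

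**Figure D4:**
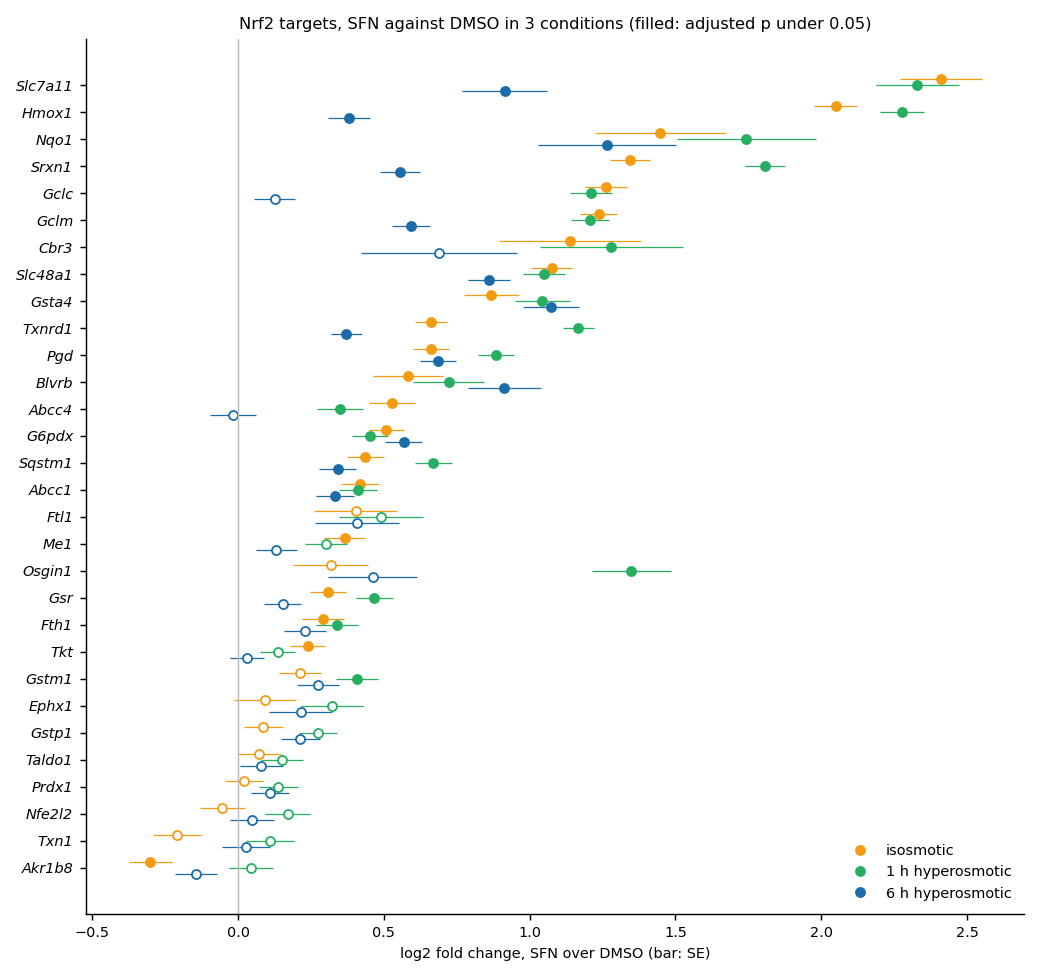
Log2 difference between SFN and DMSO pretreatment (horizontal axis, bars are standard errors) of the 30 Nrf2 targets (rows, by isosmotic difference) in isosmotic cells (orange), at 1 h (green) and at 6 h of hyperosmotic stress (blue); filled points passed an adjusted p of 0.05. The 6 h points of Slc7a11 and Hmox1, at 0.91 and 0.38, lie left of their other points, and that of Gsta4, at 1.07, lies at its 1 h point, 1.04.

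Genes of the SFN response were also chosen by another comparison, as the 78 genes higher with SFN than with DMSO at 1 h, although the expression filter and the estimate of spread behind that choice use all 12 libraries. Between isosmotic and 6 h SFN cells, 26 of the 78 fell, 11 of them at least 2-fold, 36 rose and 16 did not pass the test, against 27.9% lower and 31.8% higher among all genes tested. The 26 that fell numbered 14 or 15 when the 78 were chosen without the first or the second 1 h DMSO library, 17 without either 1 h SFN library, 9 with all 16 libraries in the fit and, of 497 chosen, 131 with only the compared libraries in the fit. In DMSO-treated cells, where 30.5% of all genes rose and 27.1% fell between isosmotic and 6 h, 34 of the 78 rose and 21 fell, 15 of these being among the 26. SFN cells were still higher than DMSO cells at 6 h in 24 of the 78, and the median difference went from 0.54 at 1 h, the value that chose them, to 0.20 at 6 h, with 68 of 78 positive.

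A fall between isosmotic and 6 h SFN cells was not the same as the loss of the difference from DMSO cells. Of the 26 that fell, 11 were still higher with SFN at 6 h, among them Adh7, Slc48a1, Gclm and Srxn1, and 11 had a negative interaction with the pretreatment. The interaction contains the change that chose the 26, and the 6 h comparison shares the 6 h SFN libraries with it. Both counts are therefore affected by the choice, which favours negative interactions. The 26 included Trib3, Chac1, Osgin1, Slc7a11, Hmox1, Srxn1, Cbr3, Txnrd1, Slc48a1, Gclm, Gsr and Dnajb1, with the values above, and Adh7, an alcohol dehydrogenase gene, at 95.6 and 106 CPM before and 79.4 and 76.8 CPM after 6 h (log2 fold change -0.37 ± 0.072 (SE), adjusted p = 1.9e-04). The 36 that rose included Arc, Hspa1b, Hspa4l, Hsph1, Abcc1, Abcc4, Sqstm1, Gsta4, Gstm1 and Atf4. Of the 23 genes lower with SFN at 1 h, 11 rose and 7 fell between isosmotic and 6 h SFN cells, and Cldn1 alone was still called lower with SFN at 6 h, while 22 of the 23 differences were negative.

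The larger isosmotic difference between SFN and DMSO was mostly not called at 6 h. Of the 1570 genes higher with SFN in isosmotic cells, 24 were higher and 2, Cdc42ep2 and Scd2, lower at 6 h, 1025 of the differences were positive and their median was 0.05. Those 24 were 24 of the 36 genes higher at 6 h. Of the 1305 genes lower with SFN in isosmotic cells, 5 were lower at 6 h, and 10 were higher, among them Egr1, Arc, Ptgs2, Dusp5 and Ccn1. Ptgs2 was at 147 and 173 CPM with SFN and 342 and 300.1 CPM with DMSO under isosmotic conditions, and at 6 h at 2437 and 2244 CPM with SFN and 1847 and 1799 CPM with DMSO. Its 6 h difference was 0.36 ± 0.074, adjusted p = 0.0429, and that of Arc 0.38 ± 0.077, adjusted p = 0.0378, and both calls were lost whichever 6 h library was left out.

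The antioxidant response element core, TGACNNNGC on either strand, was searched in the same 250 bases. It was found in 5 of 24 Nrf2 targets with a promoter in the table (20.8%), 10.1% of all promoters, 5 of 21 of the 26 genes that fell (23.8%) and 4 of 38 of the others of the 78 (10.5%), and 11.8% of promoters of tested genes hold it. A gene that fell and a gene that rose are shown, with the core in capitals as it reads on the gene's strand.
Gclm (chr3:122245307-122245556, plus strand): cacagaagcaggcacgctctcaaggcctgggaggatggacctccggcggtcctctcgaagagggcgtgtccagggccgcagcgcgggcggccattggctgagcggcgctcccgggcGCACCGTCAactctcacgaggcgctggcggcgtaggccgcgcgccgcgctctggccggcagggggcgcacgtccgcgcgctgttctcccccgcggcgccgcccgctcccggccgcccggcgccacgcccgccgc
Abcc4 (chr14:118706220-118706469, minus strand): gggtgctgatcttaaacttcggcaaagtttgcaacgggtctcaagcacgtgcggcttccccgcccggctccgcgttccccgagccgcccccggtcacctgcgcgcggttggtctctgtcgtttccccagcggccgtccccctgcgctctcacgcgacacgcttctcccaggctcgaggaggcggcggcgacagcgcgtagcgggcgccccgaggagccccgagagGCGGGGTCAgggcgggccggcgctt

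Gclm fell and Abcc4 rose between isosmotic and 6 h SFN cells, with log2 fold changes of -0.64 and 0.37. Slc7a11, shown further above with 2 CARE cores, held no ARE core in this window. A heat shock element of 3 alternating repeats was found in 1 of 19 heat shock promoters, that of Hspe1, and in 0.4% of all promoters.

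Whether the 6 h change differed with the pretreatment was tested as an interaction, the change with SFN minus the change with DMSO. It was positive in 416 genes (2.19%) and negative in 387 (2.04%). These counts moved with single libraries: without the first isosmotic SFN library they were 834 and 621, without the first isosmotic DMSO library 565 and 788, and without the second 6 h DMSO library 272 and 177. The negative count was also 177, 238, 209 and 247 without the first 6 h DMSO, the first or second 6 h SFN and the second isosmotic DMSO library. With all 16 libraries in the fit 116 and 32 genes were called. Of the members of 17 lists, the immediate-early genes had the most positive interactions, 25 of 29, and the heat shock genes 8 negative ones of 24. These counts share the isosmotic libraries with the isosmotic comparison of SFN and DMSO.

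Of the 29 immediate-early genes 25 were lower with SFN under isosmotic conditions, where 6.88% of all tested genes were. At 6 h 3 were higher with SFN, where 0.19% of all tested genes were. Junb, an AP-1 gene, was at 172 and 144 CPM in isosmotic SFN and 515 and 525 CPM in isosmotic DMSO cells, and at 6 h it was at 496 and 584 CPM with SFN and 464 and 421 CPM with DMSO (interaction 2.003 ± 0.12, adjusted p = 1.3e-09). Ccn2, for connective tissue growth factor, was at 261 and 322 CPM in isosmotic SFN and 781 and 839.6 CPM in isosmotic DMSO cells, and at 6 h at 258 and 251 CPM with SFN and 199 and 199.6 CPM with DMSO (interaction 1.82 ± 0.11, adjusted p = 7.8e-10). In both genes the pretreatments lay further apart before stress than after 6 h. Cxcl2 was at 6.68 and 7.88 CPM in isosmotic DMSO cells against the 0.809 and 0.573 CPM with SFN given above, and its 6 h level with DMSO was 153 and 151 CPM (interaction 3.59 ± 0.20, adjusted p = 2.5e-10). For chaperones the isosmotic order was the opposite, with 15 of 24 higher with SFN and 0 lower, where 8.28% of all tested genes were higher and 6.88% lower. These isosmotic list counts were not recounted without single libraries. Hspa1b was at 81.5 and 80.2 CPM in isosmotic DMSO cells, below the SFN libraries, and at 2988 and 2983 CPM after 6 h (interaction -1.69 ± 0.083, adjusted p = 4.6e-11). Chac1, at 6.19 and 6.99 CPM isosmotic and 6.99 and 7.29 CPM at 6 h in DMSO cells, had an interaction of -1.83 ± 0.21, adjusted p = 6.6e-06. Egr1 was an exception, at 173 and 196 CPM isosmotic and 171 and 185 CPM at 6 h with SFN. With DMSO it was at 260.3 and 239 CPM isosmotic and 109 and 91.7 CPM at 6 h, with a difference at 6 h of 0.83 ± 0.081, adjusted p = 7.7e-06.

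Of the 14 tested genes on the list of NFAT5 targets and organic osmolyte genes, 3 had a negative interaction (2.04% of all genes). They were the chaperone genes Hspa1a, Hspa1b and Hspa4l, which are also on the chaperone list, and the other 11 did not pass the test. Hspa4l lost its call without the first 6 h DMSO, the second isosmotic DMSO or the second 6 h SFN library. In this list 0 genes differed between SFN and DMSO cells at 6 h (edgeR), near the 0.19% higher and 0.0527% lower of all tested genes. DESeq2's counts over all genes were 69 higher and 27 lower. The interaction was 0.14 ± 0.083, adjusted p = 0.438 for Akr1b3, -0.47 ± 0.17, adjusted p = 0.162 for Slc5a3, and -0.10 ± 0.11, adjusted p = 0.691 for Slc6a6. With 2 libraries a condition, a p that misses the threshold does not show that the changes were alike.

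Between 1 h and 6 h of stress, 5163 genes (27.2%) rose and 5228 (27.6%) fell in SFN cells. Of the 14 tested NFAT5 targets and organic osmolyte genes 10 rose in this interval, with a median of 1.87, and 22 of 24 G2 and mitosis genes fell. The largest rises were in Slc6a12, Iqsec3, Gm7893, Zdbf2 and Chil4, each with 0 counts in both 1 h SFN libraries. They, too, passed the filter only through other libraries. The largest falls were in Rpl3l, a muscle ribosomal protein gene (3.71 and 5.83 to 0.325 and 0.315 CPM, log2 fold change -3.89 ± 0.59 (SE), adjusted p = 2.6e-05), and in Gm37607, Gm34455, Gramd2 and Tram1l1, by log2 fold changes of -3.84, -3.50, -3.33 and -3.20. Il6, with the fall given above, and Gadd45g (113 and 113 to 22.5 and 24.5 CPM, log2 fold change -2.27 ± 0.11 (SE), adjusted p = 6.1e-12) were higher at 1 h than at either other time in SFN cells, and both were chosen after their values were seen.

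Over all genes the largest rises against isosmotic SFN cells were in genes without a count there. Such genes passed the expression filter only through other libraries, which favours rises among them. Besides Slc6a12 they were Spocd1, at 250 and 297 counts at 6 h, Gm14546 at 261 and 278, Itgax, an integrin gene of myeloid cells, at 284 and 208, Bpifb6 at 178 and 195, Iqsec3 at 200 and 127, Gm7912 at 205 and 239, Tbx21, a T cell transcription factor gene, at 150 and 183, Tll2 at 184 and 142 and the chemokine gene Cxcl3 at 176 and 140, each with 0 counts in both isosmotic SFN libraries. The largest falls included Gm14091 (1.97 and 3.16 to 0.296 and 0.0944 CPM, log2 fold change -3.69 ± 0.53 (SE), adjusted p = 4.8e-06), Spo11 (-3.46), Rwdd3 (-3.42), Tram1l1 (-3.40), Trim54 (-3.30), Sh3tc1 (-3.30), Senp8 (-3.26), Ppp1r3b, of glycogen metabolism (-3.26), and 2610008E11Rik (-3.25), given as log2 fold changes.

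A total of 1374 genes called higher had at most 3 counts in each isosmotic SFN library, and they were examined for their position after their values had been seen. Of 1243 such genes that overlap no expressed gene (at least 50 CPM at 6 h, 4446 genes), 23.81% lay within 20 kb past the 3′ end of one and 9.815% lay within 20 kb before the 5′ end of one. For all tested genes the shares were 21.11% and 16.9%, and for genes with more than 3 isosmotic counts 26.06% and 17.72% among those called higher and 18.63% and 19.0% among the 4848 called lower. For 30918 untested genes with at most 3 isosmotic counts they were 2.879% and 3.859%. The shares past and before differed in the same direction at 50 kb, 45.05% against 20.76%, and at 5 kb, 7.08% against 3.62%. Genes at the floor that were not called had similar shares, 24.49% and 8.746% of 343. Among the genes named above, Tll2 begins 4009 bases past Tm9sf3, Cldn6 4022 bases past Hcfc1r1 and Cxcl3 16040 bases past Ppbp. These neighbours changed by 0.05, 0.18 and 1.58 on the log2 scale, and Cldn6 lies nearer to the 5′ end of Tnfrsf12a, at 1781 bases. Other named genes lay farther past such a 3′ end, as Aqp2 (35949 bases), Tbx21 (44383), Spocd1 (79246), Bpifb6 (127078) and Itgax (143846). Of the 296 floor genes called higher within 20 kb past a 3′ end, 140 were on the neighbour's strand and 156 on the opposite one. Gm14546 overlaps Akr1b3, and Iqsec3 (chr6:121372933-121473678, minus strand) ends 7157 bases past the 3′ end of Slc6a12, a gene below the 50 CPM of this search. Whether reads of these genes come from transcripts that run on past a neighbour's 3′ end was not tested. The strand setting of the counting is not given in the sources used here.

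**Figure D5:**
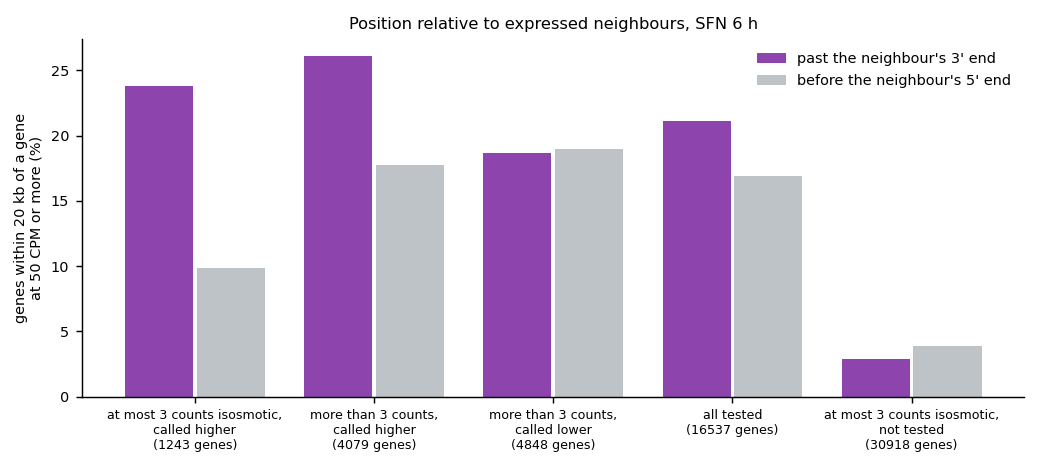
Share of genes (vertical axis, percent) lying within 20 kb past the 3′ end (purple) or before the 5′ end (grey) of a gene at 50 CPM or more in 6 h SFN cells, for 5 groups of genes (horizontal axis, with their number). In genes with at most 3 isosmotic counts and called higher the bars are 23.81% and 9.815%, and in genes called lower 18.63% and 19.0%.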

How the data were processed

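The authors deposited 1 file of raw read counts per gene for each of the 16 libraries. The paper's methods name Hisat2 with the mm10 build, Samtools and FeatureCounts, whereas the submitters' processing notes name Bowtie2, SAMtools, featureCounts and mm10, without versions. The annotation and strand setting are not given in the sources used here. One protocol label calls the cells primary tubular cells, the others mIMCD3. In 1 isosmotic DMSO library 2 lines without a gene name were left out. Between 58.01% and 65.3% of gene counts from 1 to 10 were even in the WT libraries, so that a count need not be an independent fragment.

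Counts of the 12 WT libraries (6 conditions) were fitted in edgeR 4.0.16 (R 4.3.3) with TMM scaling, filterByExpr and the robust quasi-likelihood test, and p-values were adjusted by Benjamini-Hochberg over all 18959 tested genes, with a threshold of 0.05. The Nrf2-/- libraries were left out of this fit because the 2 of that line at 1 h differed most from each other (biological coefficient of variation 0.341). An exact permutation test of 2 against 2 libraries cannot go below p = 0.333, so no single-value test was made. The procedure was tried on simulated counts in which a small set of genes changed in the 6 h SFN libraries only. Of 67 genes changed 1.5-fold, 48 were recovered for 6 h against isosmotic, 44 for SFN against DMSO at 6 h and 27 for the interaction. Of 66 genes changed 4-fold, 66, 66 and 64 were recovered. Scaling under changes as broad as the 59.72% of genes called for 6 h against isosmotic was not tested.

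Genes were named by a rule: all osmolyte and Nrf2 genes, Nfat5, Nfe2l2 and Keap1, up to 4 of every other list with the largest called change and any member set against them, the 10 largest rises and falls with a mean of at least 50 counts and no overlap, and the 5 largest of each other comparison. Some genes that this rule names are not reported here. The lists and members were chosen with earlier results of these data known. A group at 3 counts or fewer per library was given as a bound. Alternatives were RLE factors, DESeq2 1.42.0, other filters on low counts (none, or 10 counts in every library), other sets of libraries, a 2-fold threshold, the replicate block, the block with exchanged numbers in 1 condition (chosen after seeing the data) and leaving out each library. Gene positions came from GENCODE M21 (GRCm38), and promoter sequences from RefSeq (GRCm38.p6). Figures were drawn with matplotlib 3.10.9.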

Additional observations from a re-analysis of the deposited data

Results flagged for a closer look

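The change over 6 h differed between SFN- and DMSO-pretreated cells, tested as an interaction, in 416 genes with a more positive and 387 with a more negative change with SFN. Single libraries and the choice of libraries moved these counts, from 272 to 834 and from 177 to 788 when 1 library was left out.

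Among immediate-early and related genes the interaction on the log2 scale was 2.53 for Arc, 2.26 for Bhlhe40, 2.06 for Btg2, 1.27 for Egr1, 2.90 for Egr2, 2.57 for Fosb, 2.003 for Junb and 1.82 for Ccn2. It was 3.59 for the chemokine gene Cxcl2, 2.26 for the claudin gene Cldn4 and 2.47 for the mucin gene Muc4, which stood at 0 and 9 counts in the isosmotic and 217 and 201 counts in the 6 h SFN libraries and lost its call without each of 6 single libraries. Junb overlaps Prdx2 on the other strand.

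Of 30 Nrf2 targets 7 had a negative interaction, where 2.04% of all genes did, and 23 did not pass the test. The values were -1.67 for Hmox1, -1.50 for Slc7a11, -1.14 for Gclc, -0.79 for Srxn1, -0.64 for Gclm, -0.55 for Abcc4 and -0.29 for Txnrd1, the last of which lost its call without each of 5 single libraries. Of 24 chaperone genes 8 had a negative interaction, among them -1.69 for Hspa1b, -1.58 for Hspa1a, -0.75 for Dnajb1, -0.75 for Hsph1 and -0.52 for Hspa4l, and the ATF4-dependent genes Chac1 and Sesn2 had -1.83 and -1.15.

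The most negative fitted interactions, -5.83 for Ankrd7, -5.74 for Susd3, -5.68 for Prl2c2, -4.14 for Plb1 and -3.03 for BC037704, belong to genes with few counts in the isosmotic DMSO libraries, 0 for Ankrd7, 0 for Susd3, 0 for Prl2c2, 1 and 0 for Plb1 and 12 and 6 for BC037704, so these values depend on the prior count of the fit.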

How the results depend on the processing

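For the 6 h change in SFN cells, leaving out 1 library gave 5144 to 5580 higher and 4692 to 5046 lower genes for 6 h against isosmotic, and 4139 to 4491 and 4420 to 4522 for 6 h against 1 h. Requiring 2-fold changes gave 3767 and 1749, and 3077 and 1716. The same requirement left 134 and 67 interactions, 4 higher and 0 lower genes for SFN against DMSO at 6 h, 15 and 0 at 1 h, 150 and 216 under isosmotic conditions, and 11 genes of the 1 h SFN response that fell. With all 16 libraries in the fit, interactions numbered 116 and 32, SFN against DMSO 8 and 0 at 6 h, 18 and 0 at 1 h and 212 and 343 isosmotic, and response genes that fell 9. With only the libraries compared in the fit, negative interactions numbered 157, SFN against DMSO 79 and 27 at 6 h, 497 and 312 at 1 h and 507 and 590 isosmotic, and response genes that fell 131. DESeq2 called 69 and 27 at 6 h and 123 and 57 at 1 h. With no filter on low counts, 613 interactions were negative, and SFN against DMSO gave 91 and 48 at 6 h and 123 and 75 at 1 h. The cause of these differences was not tested.

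Leaving out 1 library gave 272 to 834 positive and 177 to 788 negative interactions, 12 to 19 higher and 0 to 5 lower genes with SFN at 6 h, 31 to 39 and 1 to 6 at 1 h, 614 to 2000 and 722 to 1789 isosmotic, and 14 to 27 response genes that fell. Of 494 named results of 6 h against isosmotic, 394 were called. Under every alternative that tested the gene, 382 of the 494 kept their side of the threshold and, where called, their direction. Directions of genes called in neither fit were not compared, and the 2-fold threshold was not applied to single genes. A call was lost by 71 and gained by 41 under at least 1 alternative, and 2 results reversed. Eif4ebp1 went to 0.30 without the first and -0.26 without the second isosmotic SFN library. Il6 went to 0.0 without the first 6 h SFN library, where it had its counts, and 6.58 without the second. Of 143 called interactions 80 lost the call under at least 1 alternative.

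The correlations of deviations between libraries with the same replicate number ran from -0.2476 to 0.1116, and the labels do not say whether a number marks a shared batch. With the replicate block, 6 h against isosmotic gave 5873 and 5215, the interaction 386 and 320, and SFN against DMSO at 6 h 30 and 8. The numbers of the isosmotic SFN libraries correlated negatively with others, and exchanging them in the block, an alternative chosen after seeing the data, gave 600 and 637 interactions, 76 and 25 genes for SFN against DMSO at 6 h and 112 and 53 at 1 h. With RLE size factors the median of all genes moved by 0.0565, and 56.88% of calls were rises, against 53.3%.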
